A study of Mus musculus with 4 samples.

Results

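Enterobacteriaceae were followed in the stool of C57BL/6J mice before and after short courses of antibiotics given by different routes. The family was chosen by name: every row of the composition table assigned to a family whose name begins with Enterobacteriaceae was taken. This gave 3 of 488 taxa, all placed in the family Enterobacteriaceae_A, and they are Escherichia_710834, Proteus and a row that carries no genus name (unclassified Enterobacteriaceae_A). The table holds 36 rows of the phylum Proteobacteria in all. It also holds 24 rows of Muribaculaceae and 103 rows of Lachnospiraceae, the families of anaerobes set beside Enterobacteriaceae here.

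Wild-type mice of 8 to 12 weeks, kept under specific-pathogen-free conditions, received vancomycin, ampicillin, neomycin or metronidazole, or all 4 antibiotics as a mix, and control mice received phosphate-buffered saline (PBS) without antibiotic. A dose was 2.5 mg in 100 µl of PBS, given 2 times a day on 3 days with a last dose on day 4, and the mice were killed 4 hours after it. The treatment codes of the sample sheets, PO, IP and IV, were read as the oral gavage, intraperitoneal injection and intravenous injection of the labels. The V4 region of the 16S rRNA gene was sequenced from stool of day 0 and day 4, and a value is the percent of a library's reads. A share shows no absolute number of bacteria: more Enterobacteriaceae and fewer of all other bacteria cannot be told apart. Cage assignments were not used here.

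Day 0 was represented by 107 libraries and day 4 by 91, of which 12, all of day 4, came from a second sequencing run called SB1 and the others from run ok122. Libraries held 2 to 41082 reads at day 0 (median 7289, 24 under 1000 reads) and 30 to 153407 at day 4 (median 23566, 4 under 1000), as recovered from the scaled values. In 2 groups a pair of libraries differed by no more than sampling noise (chi-square tests, p = 0.363 and p = 0.153) and was averaged and counted as 1 sample. These are intraperitoneal vancomycin replicates 1 and 5 and intravenous ampicillin replicates 3 and 4. Day 4 groups then held 2 to 6 samples, 89 in all. Apart from replicate numbers, the sources do not state that samples came from separate cages, so p-values measure the spread between these samples.

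Enterobacteriaceae are Gram-negative rods of the gut that can grow with or without oxygen, and Escherichia, the genus of E. coli, is the usual member in mammals. In an undisturbed gut, oxygen is scarce and strict anaerobes prevail. Muribaculaceae (order Bacteroidales) break down complex carbohydrates in the mouse gut, and Lachnospiraceae (class Clostridia) include many producers of butyrate. Vancomycin blocks cell wall synthesis in Gram-positive bacteria, is held back by the outer membrane of Gram-negative ones, and is poorly absorbed from the gut. Ampicillin is a beta-lactam with activity against both. Neomycin, an aminoglycoside, acts on aerobic Gram-negative rods, and metronidazole acts on anaerobes.

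At day 0 the family was at the edge of detection. It was found in 3 of 107 libraries with 71 reads in all. Its highest share was 0.326% in a mouse of the intraperitoneal mix group, and shares of 0.0124% and 0.0321% were found in 2 mice of the intraperitoneal PBS group. In the 10 oral and intravenous comparisons with PBS every sample of both groups was listed at 0 at day 0, so no difference could be measured. In the 5 intraperitoneal comparisons two-sided exact permutation tests gave p = 0.455 to 1 (adjusted p = 1), which does not show that the groups were equal. A share of 0 here has a limit set by depth: in the mice due to receive oral vancomycin, 3 reads of the library correspond to 0.0137% to 0.432%.

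At day 4 the family was found in 43 of 91 libraries with 122062 reads, and 99.0% of these were Escherichia_710834. The unclassified row held 0.959% of the family's reads in 11 libraries, and Proteus, a swarming, urease-positive genus, held 22 reads in 4 libraries. Only Escherichia was present in enough samples (38 of 89, with a minimum of 20%) to be tested as a genus. The unclassified row (11 samples) and Proteus (4 samples) are therefore given as values. Among mice with stool of both days and the same route on both, 36 of 73 mice given an antibiotic had family reads at day 4, against 5 of 16 mice given PBS. A mix mouse with unlike routes, at 18.1% on day 4, was left out of these counts. Here both libraries of each averaged pair were counted. On day 0 the same counts were 0 of 73 mice due to receive an antibiotic and 1 of 16 mice due to receive PBS. PBS libraries were deeper at day 4 (median 37115 reads) than at day 0 (median 10433.5 reads), and the part of depth in that gain was not tested.

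**Figure D1:**
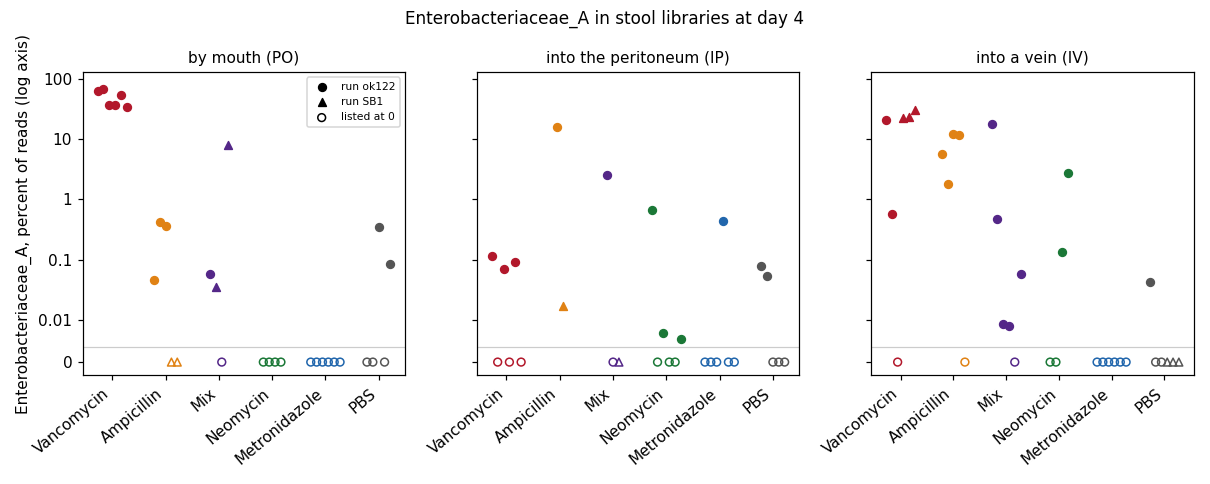
Percent of reads assigned to Enterobacteriaceae_A (vertical axis, log scale with 0 drawn at the bottom) in each of the 91 day 4 libraries, by antibiotic and PBS within each route. Circles are run ok122, triangles run SB1, and open symbols are libraries in which the family is listed at 0. All 6 oral vancomycin libraries lie at 34.0% or above, and the highest oral PBS library lies at 0.345%.

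Each antibiotic was compared at day 4 with PBS given by the same route, in 15 comparisons. The family-level test was a limma fit of log2(percent + 0.01) over 39 families and all day 4 samples, with Benjamini-Hochberg adjustment over the families and a threshold of 0.05. Enterobacteriaceae were called higher in 3 of the 15 comparisons (oral vancomycin, intravenous vancomycin and intravenous ampicillin) and lower in 0. PBS samples stood at 0% to 0.345%, which leaves little room for a fall to be measured. Over all 39 families, the share called higher was 0% for metronidazole by each route, for intraperitoneal neomycin, for intravenous neomycin and for the intraperitoneal mix, 5.13% for the oral mix and intraperitoneal vancomycin, 7.69% for oral neomycin, 12.8% for the intravenous mix, 15.4% for oral ampicillin and 17.9% for intraperitoneal ampicillin. Log2 differences carry the added 0.01 and understate changes against groups near 0.

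Oral vancomycin gave the highest shares of the 18 day 4 groups. Enterobacteriaceae held 63.0%, 68.8%, 36.9%, 36.5%, 55.2% and 34.0% of reads in the 6 mice given oral vancomycin. In the 5 mice given oral PBS they held 0.345%, 0.0858% and 0% in the other 3. The groups did not overlap, and the family was the most abundant of all families in 4 of the 6 vancomycin mice and among the 3 most abundant in all 6. The mean was 49.1% ± 15.2 (SD, n = 6) with vancomycin and 0.0861% ± 0.149 (SD, n = 5) with PBS, a log2 difference of 10.52 (SE 1.65, limma adjusted p = 1.30e-07). The exact permutation test over these samples gave p = 0.00216, the smallest the design allows, and 0.0325 after adjustment over the 15 comparisons. In the same comparison 17.9% of families were called higher. When each library was centred on the mean log share of its families, the difference was 11.73.

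Nearly all of this share was Escherichia. In the oral vancomycin mice Escherichia_710834 made up the whole family in 5 of 6 libraries, and in the other it held 68.6% of reads beside 0.196% of the unclassified row. The genus-level fit over 98 genera gave a log2 difference of 10.53 (limma adjusted p = 8.85e-08), and 7.14% of genera were called higher there. Oral vancomycin libraries were shallower, 1151 to 20443 reads, than oral PBS libraries, 18152 to 64482 reads. With all libraries thinned to 1000 reads the family difference was 11.21.

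Stool of both days was available from the 6 oral vancomycin mice and the 5 oral PBS mice, and all 11 were listed at 0 on day 0. The change within mice therefore equals the day 4 value less a constant, and its test repeats the day 4 test and adds no independent support. The day 4 mean of the vancomycin mice was at least 352-fold higher than the floor of 3 reads per day 0 library. The change in log2(percent + 0.01) from day 0 to day 4 was 12.20 ± 0.449 (SD, 6 of 6 mice up) with oral vancomycin and 1.68 ± 2.40 (SD, 2 of 5 mice up) with oral PBS. With mice left out whose library of either day had under 1000 reads, 4 vancomycin and 3 PBS mice remained, with a difference of 9.21 and an adjusted p of 0.238 by the exact test. The smallest p possible for 4 against 3 mice is 0.0286, which is the value obtained before adjustment.

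**Figure D2:**
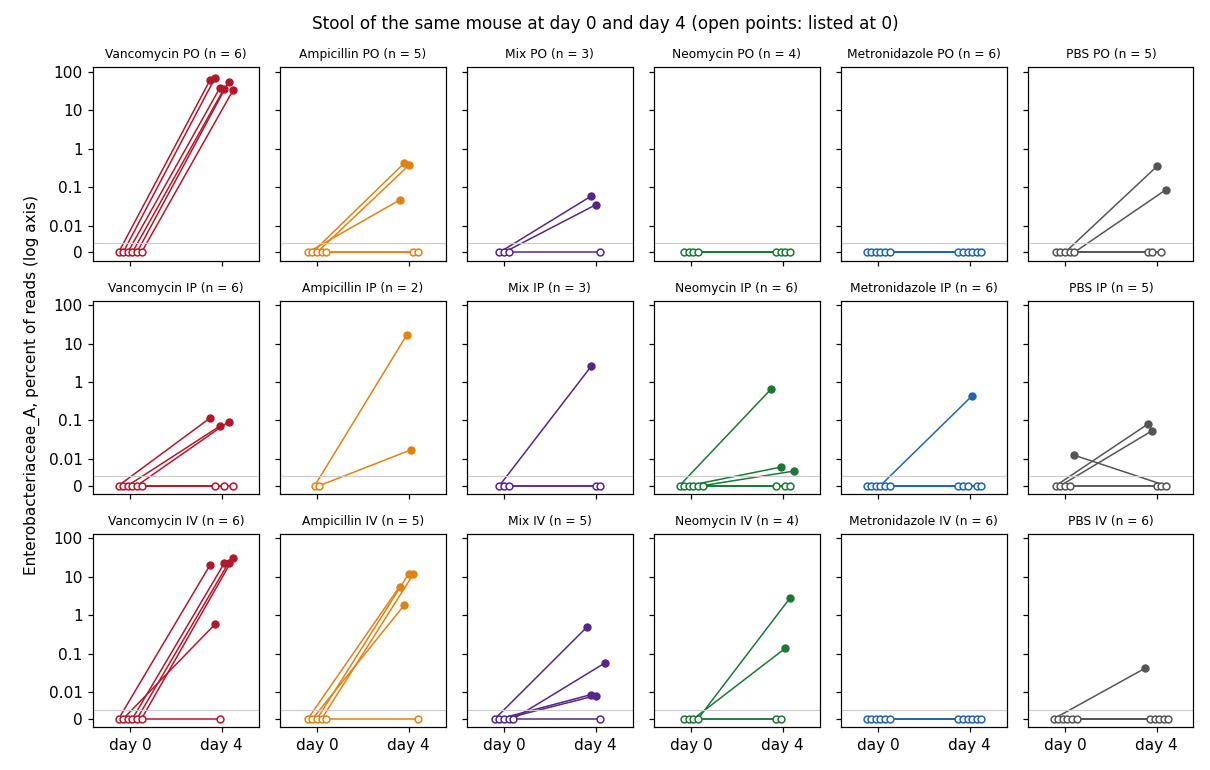
Percent of reads assigned to Enterobacteriaceae_A (vertical axis, log scale with 0 at the bottom) in stool of the same mouse at day 0 and day 4, with 1 line per mouse and 1 panel per antibiotic or PBS and route. All 6 oral vancomycin mice go to 34.0% or more at day 4, and all 16 mice given metronidazole or neomycin by mouth or metronidazole by vein stay at 0.

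Burkholderiaceae, another group of Proteobacteria, shared these libraries. The table splits them into families, of which Burkholderiaceae_A_580492 holds the genus Burkholderia and Burkholderiaceae_A_595427 the genera Parasutterella and Turicimonas, known from the mouse gut. Together they held 0.258% to 21.9% of reads in the 6 oral vancomycin libraries, against 0.0481% to 0.0992% in oral PBS. Burkholderiaceae_A_595427 was called higher with oral vancomycin (9.13% against 0.0647% in PBS, log2 5.91, limma adjusted p = 9.95e-06). Computed over the reads outside Burkholderiaceae, the Enterobacteriaceae difference was 10.66. A list of 7 other families of Proteobacteria that are also seen in reagents, matched by the start of the family name, had these 2 that could be tested. Whether their reads came from stool or from reagents was not tested. Burkholderiaceae_A_595427 was also higher with oral neomycin (1.49% against 0.0647% in PBS), and Burkholderiaceae_A_580492 was higher with oral ampicillin (37.2% against 0.00155%), the oral mix (56.4% against 0.00155%) and intraperitoneal ampicillin (4.28%, listed at 0 in PBS).

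No other antibiotic given by mouth was called for Enterobacteriaceae. Oral ampicillin gave 0.0461%, 0.420%, 0.369%, 0% and 0%, with a mean of 0.167% ± 0.209 (SD, n = 5), against 0.0861% ± 0.149 (n = 5) in oral PBS (log2 0.95, SE 1.72, limma adjusted p = 0.650). In the library with 0.369%, Proteus made up 0.176%. Burkholderiaceae held 89.0% of that library and 96.7% of 1 of those at 0%, which lowers all other shares there. The oral mix gave 0.0583% and 0.0348% in 2 libraries, 0% in a library of 556 reads and 7.92% in the other, so that its mean of 2.00% rests on 1 sample of run SB1. Its log2 difference of 1.96 (SE 1.83, limma adjusted p = 0.431) became -0.036 without that sample. Burkholderiaceae held 91.9% and 96.0% of the mix libraries with 0.0583% and 0.0348%, and 37.8% of the library of 556 reads. The differences in this paragraph are on shares of all reads, Burkholderiaceae included. Oral neomycin (4 samples) and oral metronidazole (6 samples) were listed at 0 in every library, where 3 reads correspond to at most 0.0103% and 0.0473%.

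The antibiotics were also compared with each other in the same fit, over 30 pairs within routes. By mouth, vancomycin was above ampicillin (log2 9.57, SE 1.65), above the mix that contains vancomycin (8.56, SE 1.76), above neomycin (12.20, SE 1.76) and above metronidazole (12.20, SE 1.57). The limma p-values adjusted over the 30 pairs were at most 3.25e-05 for these 4 pairs, and 15.4% to 17.9% of families were higher with vancomycin in them. In each pair all 6 vancomycin samples lay above all samples of the other antibiotic, and the exact permutation tests gave adjusted p-values of 0.0325 to 0.0357 over the 30 pairs. These pairs compare shares of all reads, including Burkholderiaceae, which held most reads of some oral ampicillin and oral mix libraries. None of the other 6 oral pairs passed, and ampicillin minus mix was -1.01 (SE 1.83).

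**Figure D3:**
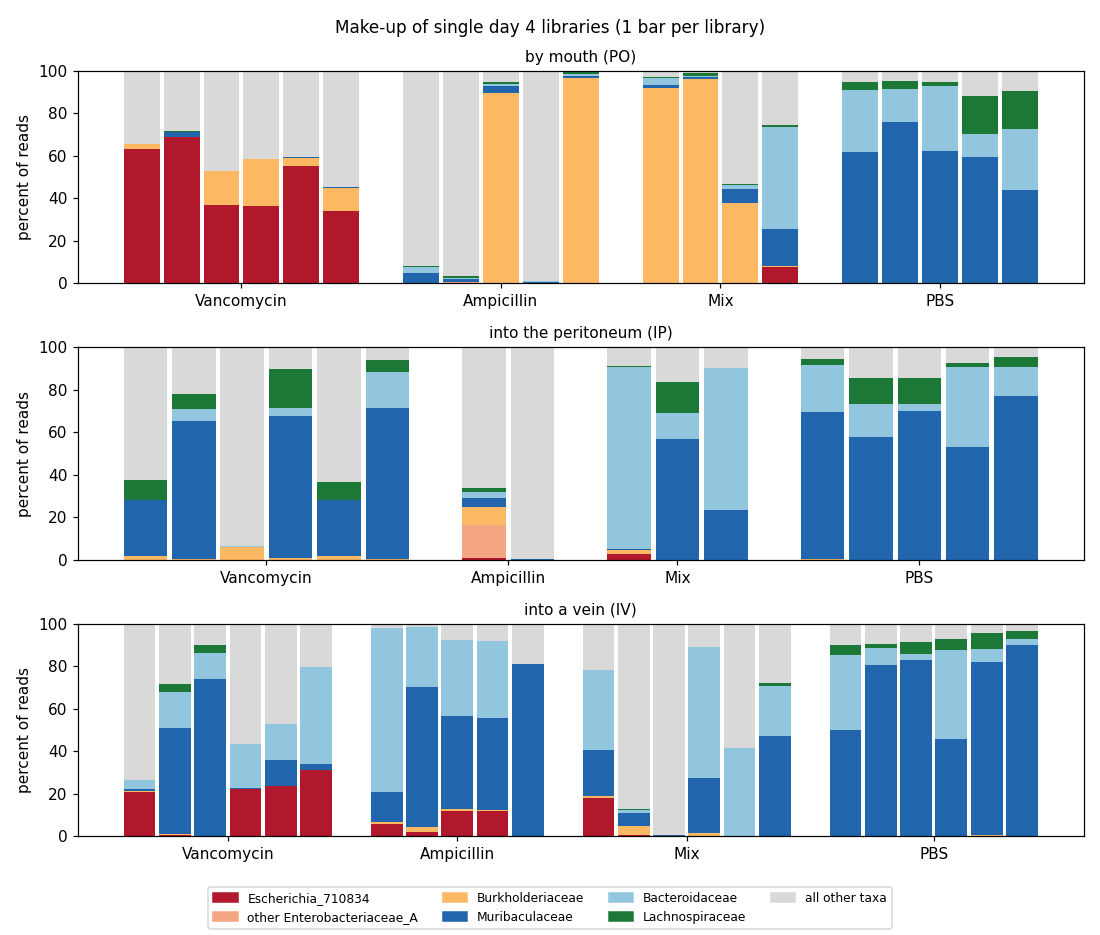
Share of reads (percent, vertical axis) of Escherichia_710834, other Enterobacteriaceae_A, Burkholderiaceae, Muribaculaceae, Bacteroidaceae, Lachnospiraceae and all other taxa in single day 4 libraries, 1 bar per library, for vancomycin, ampicillin, the mix and PBS by each route. Escherichia fills 34.0% to 68.6% of the oral vancomycin bars, and Burkholderiaceae fill 89.0% and 96.7% of 2 oral ampicillin bars and 91.9%, 96.0% and 37.8% of 3 oral mix bars.

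Given into a vein, vancomycin was again followed by high shares, but not in every mouse. Enterobacteriaceae held 20.8%, 0.579% and 0% in the 3 vancomycin mice of run ok122 and 22.2%, 23.4% and 31.0% in the 3 of run SB1. In intravenous PBS mice they were found in 1 of 6, at 0.0419%. All 3 vancomycin mice of run SB1 were thus at 22.2% or above, and 1 of 3 of run ok122 was above 20%. The mean was 16.3% ± 12.9 (SD, n = 6) with vancomycin and 0.00698% ± 0.0171 (SD, n = 6) with PBS. The log2 difference was 8.07 (SE 1.57, limma adjusted p = 2.65e-05), in a fit that called 5.13% of families higher. The exact test gave p = 0.0152, or 0.114 adjusted over the 15 comparisons.

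Within run SB1 the intravenous vancomycin difference was 11.30 and the groups did not overlap (two-sided exact permutation p = 0.10, the smallest that 3 against 3 allows). Within run ok122 it was 4.84 (limma adjusted p = 0.0842), the groups overlapped, and the exact permutation test gave p = 0.40, or 0.667 adjusted over the 15 comparisons. With run as a term in the fit it was 8.07. Each group holds 3 samples of each run, so this term could not move the difference and does not test the part of run. Escherichia alone gave 8.07 (limma adjusted p = 1.24e-05 over genera, of which 4.08% were called higher). The unclassified row was found in 2 of the 6 mice, at 0.155% and 0.00978%.

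Intravenous ampicillin came next. Enterobacteriaceae held 5.57%, 1.82%, 11.9% and 0% in the 4 ampicillin samples, where 11.9% is the mean of 2 near-identical libraries (12.0% and 11.7%), and all of it was Escherichia (genus-level adjusted p = 0.00129, with 5.10% of genera called higher). The mean was 4.82% ± 5.25 (SD, n = 4), against 0.00698% ± 0.0171 (n = 6) in PBS. Of the 4 samples 3 lay above all PBS samples, and the fourth was listed at 0 in 29766 reads. The log2 difference was 6.32 (SE 1.76, limma adjusted p = 0.00243), and 7.69% of families were called higher. The exact test gave p = 0.0333, or 0.167 adjusted over the 15 comparisons.

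The other intravenous groups were lower or mixed. The intravenous mix gave 18.1%, 0.481%, 0.0572%, 0.00859% and 0.00809% in 5 mice and 0% in a library of 65 reads, a log2 difference of 3.09 from PBS (SE 1.57, limma adjusted p = 0.121). The mean of 3.11% thus came mostly from 1 mouse. In it the unclassified row stood at 0.165% and Proteus at 0.0123%. The sample sheets give this mouse the intraperitoneal route at day 0 and the intravenous route at day 4, so its route is uncertain. It was kept as intravenous in all day 4 comparisons. Intravenous neomycin gave 2.72%, 0.137%, 0% and 0% (log2 2.60, SE 1.76, limma adjusted p = 0.796), and intravenous metronidazole 0% in all 6 mice.

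Among intravenous pairs, vancomycin was above the mix (log2 4.98, SE 1.57), neomycin (5.48, SE 1.76) and metronidazole (8.47, SE 1.57), and ampicillin was above metronidazole (6.71, SE 1.76). The limma p-values adjusted over the 30 pairs were 0.00939, 0.00960, 5.10e-06 and 0.00131 in that order, and the families called higher in these pairs were 7.69%, 5.13%, 5.13% and 7.69%. None of these 4 passed by the exact test, with adjusted p-values of 0.0758 to 0.242. Vancomycin minus ampicillin was 1.75 (SE 1.76, adjusted p = 0.460 over the 30 pairs by limma). This difference has an SE as large as itself, so the data do not show that these antibiotics act alike.

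Injection into the peritoneum gave scattered single mice. Intraperitoneal vancomycin stood at 0% to 0.117% in its 6 libraries (5 samples), against 0% to 0.0793% in intraperitoneal PBS (log2 0.14, SE 1.72, limma adjusted p = 0.937). Intraperitoneal ampicillin had 2 samples, at 16.2% (run ok122) and 0.0171% (run SB1), with a log2 difference of 4.89 (SE 2.28, limma adjusted p = 0.0683). The first was made up of 15.2% of the unclassified row and 1.01% Escherichia, the only library with over 1% of the unclassified row. The intraperitoneal mix had 1 of 3 samples with reads of the family, at 2.56%, and a library at 0 held 30 reads, where 3 reads are 10% of the total.

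Intraperitoneal neomycin had 1 mouse at 0.665% (all Escherichia) and 2 others at 0.00605% and 0.00480%, the last of them Proteus. Intraperitoneal metronidazole had 1 mouse of 6 at 0.434%, all of it the unclassified row. PBS by this route had 2 of 5 mice with the family, at 0.0793% (Proteus included) and 0.0539%. Of the 10 intraperitoneal pairs of antibiotics, ampicillin minus metronidazole was called over the families (log2 5.14, SE 2.23, limma adjusted p = 0.0482) but not over the 30 pairs (adjusted p = 0.0782). Limma adjusted p-values against PBS for the mix, neomycin and metronidazole by this route were 0.609 to 1.

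The route was tested directly as a difference of effects, antibiotic minus PBS by a route less antibiotic minus PBS by another. For vancomycin the oral effect exceeded the intraperitoneal effect by 10.38 (SE 2.39, limma adjusted p = 0.00151 over families and 0.000580 over the 15 route contrasts), and 7.69% of families were called that way. The intravenous effect exceeded the intraperitoneal effect by 7.94 (SE 2.34, adjusted p = 0.0408 over families and 0.00784 over the 15 contrasts), and at 2.56% it was the only family of 39 called that way. The second did not hold in run ok122 alone, where it was 4.71 (adjusted p = 0.581). Oral and intravenous effects of vancomycin differed by 2.45 (SE 2.28, adjusted p = 0.573). For ampicillin the oral effect was 5.37 below the intravenous effect (log2 -5.37, SE 2.46, adjusted p = 0.105). None of the other 11 route contrasts passed.

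**Figure D4:**
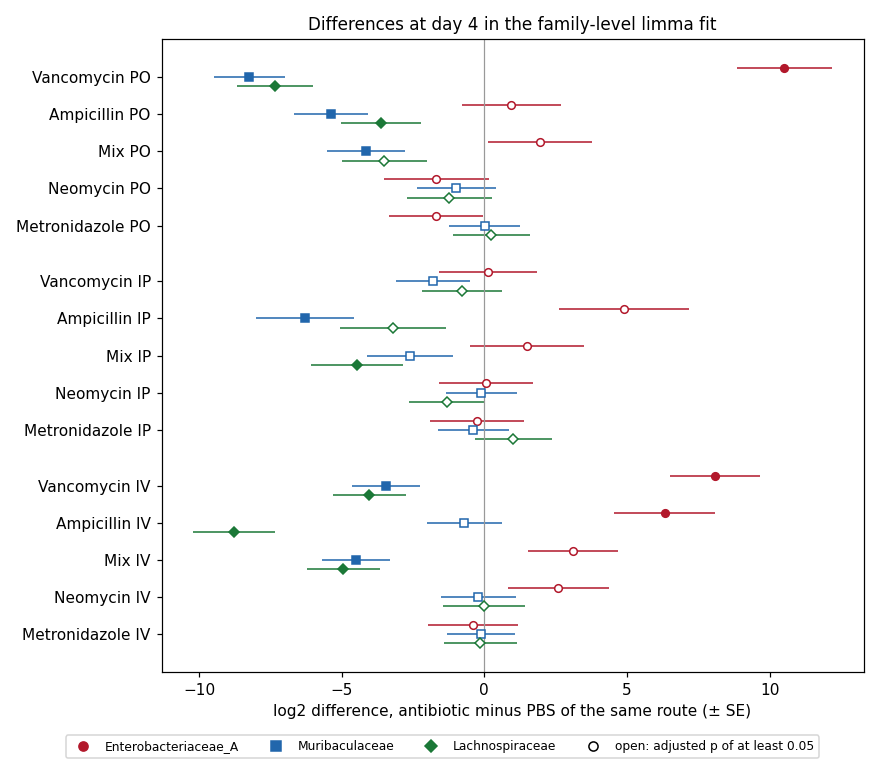
Log2 differences from PBS of the same route at day 4 (horizontal axis, antibiotic minus PBS, bars are ± 1 SE of the limma fit) for Enterobacteriaceae_A, Muribaculaceae and Lachnospiraceae in the 15 comparisons. Filled symbols have an adjusted p under 0.05. Oral vancomycin has Enterobacteriaceae_A at 10.52 and the anaerobe families at -8.24 and -7.34, while intravenous ampicillin has Muribaculaceae at -0.70 and Lachnospiraceae at -8.77.

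Gain of Enterobacteriaceae was then set beside loss of the anaerobe families. Comparisons of a route share their PBS mice, so the values are given side by side and no correlation between comparisons was computed. With oral vancomycin, Muribaculaceae stood at 0% to 1.94%, against 43.8% to 76.0% in oral PBS (log2 -8.24, limma adjusted p = 7.37e-08). Lachnospiraceae stood at 0% to 0.140% with oral vancomycin and at 1.73% to 18.1% in PBS (log2 -7.34, adjusted p = 2.24e-06). Both families were lower in 6 of 6 mice than in any PBS mouse, and 46.2% of all families were called lower. Shares of a library sum to 100%, so a high share of 1 family lowers the others. In the oral vancomycin mice Muribaculaceae also held no more than 6.23% of the reads outside Enterobacteriaceae.

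Oral ampicillin had loss of the same families without a call for Enterobacteriaceae. Muribaculaceae held 2.12% on average, against 60.6% in oral PBS (log2 -5.36, limma adjusted p = 0.000566). Lachnospiraceae held 0.782%, against 9.08% in PBS (log2 -3.61, adjusted p = 0.0216). All 5 ampicillin mice lay below all PBS mice for both families. Of all families, 43.6% were called lower. Burkholderiaceae held 89.0% and 96.7% of reads in 2 of the 5 libraries and 0.107% to 0.323% in the other 3. Over reads outside Burkholderiaceae, Muribaculaceae were at -3.75 (adjusted p = 0.0176) and Lachnospiraceae at -1.99 (adjusted p = 0.243). Centring each library on its families gave -2.59 for Lachnospiraceae (adjusted p = 0.0631).

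The oral mix had Muribaculaceae at 0.778% to 17.2%, all 4 samples below all oral PBS samples (log2 -4.15, limma adjusted p = 0.0122), and Lachnospiraceae at -3.51 (adjusted p = 0.0568), while 28.2% of all families were called lower. Burkholderiaceae held 91.9%, 96.0% and 37.8% of reads in 3 of its libraries. Over the reads outside them Muribaculaceae were at -1.91 (adjusted p = 0.280). The fourth oral mix library, with 0.378% Burkholderiaceae, was the one with 7.92% Enterobacteriaceae. It also held 17.2% Muribaculaceae, the highest share of the group.

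Intravenous ampicillin separated the families. Muribaculaceae averaged 51.0%, against 71.7% in intravenous PBS (log2 -0.70, SE 1.33, limma adjusted p = 0.687), and 2 of 4 samples lay within the PBS range of 45.7% to 90.1%. Lachnospiraceae were listed at 0 in every ampicillin library. This is at least 145-fold lower than their mean of 4.74% in PBS, taking 3 reads per library as the floor (limma adjusted p = 1.09e-06, with 30.8% of families called lower). Beside 5.57%, 1.82% and 0% Enterobacteriaceae, ampicillin samples held 14.4%, 65.5% and 80.8% Muribaculaceae in that order. The near-identical libraries with 12.0% and 11.7% Enterobacteriaceae held 43.6% and 43.2%. The lowest Muribaculaceae were thus not in the sample with the most Enterobacteriaceae.

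Intravenous vancomycin and the intravenous mix lost both families on average. With vancomycin Muribaculaceae were at log2 -3.46 (limma adjusted p = 0.0148) and Lachnospiraceae at -4.04 (adjusted p = 0.00817), with 4 of 6 mice below all PBS mice for each and 25.6% of all families called lower. The 4 mice with 20.8% to 31.0% Enterobacteriaceae held 0.404% to 12.3% Muribaculaceae. The mice with 0.579% and 0% held 49.8% and 73.5%, within the PBS range. With the mix Muribaculaceae were at -4.51 and Lachnospiraceae at -4.94 (adjusted p = 0.00137 for both, with 28.2% of families called lower), and Enterobacteriaceae were not called. The mix values include the library of 65 reads, where both anaerobe families were listed at 0 and 3 reads are 4.62%. They also include the mouse of uncertain route, with 21.2% Muribaculaceae and 0.154% Lachnospiraceae.

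By the peritoneum, Muribaculaceae were called lower with ampicillin (2.35% in 2 samples, against 65.4% in PBS, log2 -6.28, limma adjusted p = 0.00196, with 23.1% of families called lower). Lachnospiraceae were called lower with the intraperitoneal mix in the limma fit (log2 -4.47, adjusted p = 0.0395, with 17.9% of families called lower). Its 3 samples held 0.0786%, 14.3% and 0%, against 1.78% to 12.5% in PBS, so that 1 lay above every PBS sample and the 0% came from the library of 30 reads, where 3 reads are 10%. The means were 4.81% with the mix and 6.84% in PBS. The call was lost with each library centred on its families (adjusted p = 0.106) or without Burkholderiaceae (adjusted p = 0.0689). Intraperitoneal vancomycin replicate 3 held 0.261% Muribaculaceae and 0.0286% Lachnospiraceae with 0.0699% Enterobacteriaceae. Neomycin and metronidazole were not called for either anaerobe family by any route.

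**Figure D5:**
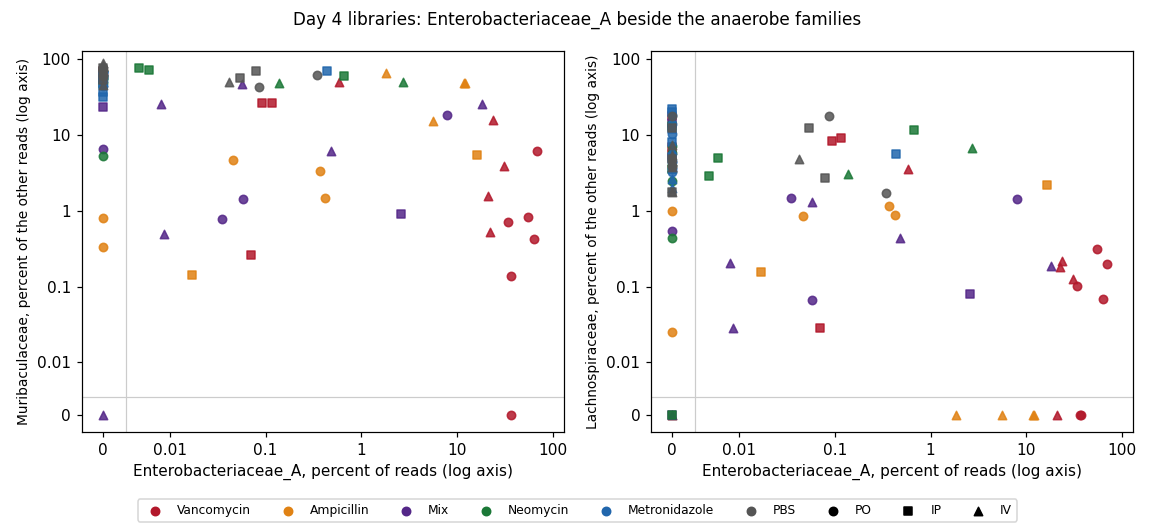
Enterobacteriaceae_A (percent of all reads, horizontal log axis) against Muribaculaceae (left) or Lachnospiraceae (right) as a percent of the reads that are not Enterobacteriaceae_A (vertical log axis), 1 point per day 4 library, with values of 0 drawn beyond the grey lines. Colours are antibiotics and PBS, symbols are routes. The 6 oral vancomycin libraries sit at the far right with Muribaculaceae at 0% to 6.23%, and oral ampicillin libraries have low Muribaculaceae with Enterobacteriaceae_A at 0.420% or less.

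Relations within a group were computed only where it held at least 6 samples. Intravenous ampicillin, oral ampicillin and the oral mix were among the groups left out. Within the larger groups, and over all antibiotic samples, 12 relations of Enterobacteriaceae with the other families as a share of the remaining reads were computed on the log2 scale. None passed (two-sided permutation tests, adjusted p = 0.586 to 0.996 for Pearson's r and 0.533 to 0.668 for Spearman's rho). Within intravenous vancomycin, r with Muribaculaceae was -0.768 and rho -0.543 (exact permutation p = 0.0569 and 0.297, n = 6). Without the 2 mice farthest from the median in Enterobacteriaceae r was 0.337, so the relation rests on those mice. With Lachnospiraceae r was -0.783 and rho -0.60 (exact p = 0.10 and 0.242), and r was 0.441 without these 2 mice. These mice come from 2 runs, with 3 mice in each, too few for a value within a run.

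Within oral vancomycin the sign was the other way. There r was 0.651 with Muribaculaceae (rho 0.543, exact permutation p = 0.161 and 0.297, n = 6) and 0.647 with Lachnospiraceae (rho 0.406, exact p = 0.217 and 0.433). Without the 2 farthest mice these were 0.406 and 0.645. Over all 73 antibiotic samples (averaged pairs counted once) with group means subtracted, r was -0.000905 with Muribaculaceae (permutation p = 0.996). The rho with Muribaculaceae was -0.284 (permutation p = 0.0575). With Lachnospiraceae r was -0.0126 (p = 0.933) and rho -0.0659 (p = 0.668). Oral and intravenous metronidazole gave no value, since all their samples were at 0.

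Lists of other families were counted in the same fit. Of 9 families of obligate anaerobes, 8 could be tested. With oral vancomycin 7 of the 8 were lower (46.2% of all 39 families) and with oral ampicillin 7 (43.6%), and Tannerellaceae were the exception in both. Their median log2 difference was -6.79 with oral vancomycin, beside -1.20 over all 39 families, and -4.13 with oral ampicillin, beside -1.36. With the oral mix 5 were lower (28.2% of all families), and with oral neomycin 1 was higher (7.69% of all families) and 0 were lower. These counts depend on the scaling. With each library centred on its families, lower calls over all families went from 18 to 13 with oral vancomycin. They went from 17 to 9 with oral ampicillin and from 11 to 7 with the oral mix. Lachnospiraceae, 1 of the 7 with oral ampicillin, were then not called (limma adjusted p = 0.0631).

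With intravenous vancomycin 5 of the 8 were lower and 1 higher (25.6% and 5.13% of all families), with a median of -3.28 beside -0.60 over all families. With intravenous ampicillin 5 were lower and 1 higher (30.8% and 7.69%), with a median of -4.26 beside -0.99. The intravenous mix, without a call for Enterobacteriaceae, had 6 lower and 1 higher (28.2% and 12.8%), with a median of -3.75 beside -0.41. With centred libraries, lower calls over all families went from 10 to 9 with intravenous vancomycin and from 12 to 7 with intravenous ampicillin. They stayed at 11 with the intravenous mix. By the peritoneum 5 of the 8 were lower with ampicillin (23.1% of all families) and 5 with the mix (17.9%), and vancomycin had 2 lower and 1 higher (20.5% and 5.13%). With metronidazole by each route and with intraperitoneal or intravenous neomycin, 0 of the 8 were called.

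The higher one was in each case Tannerellaceae, a family of Bacteroidales that includes Parabacteroides. They were called higher in 5 of the 15 comparisons. The family held 31.6% with intravenous vancomycin, against 0.0325% in PBS (log2 8.65, limma adjusted p = 2.28e-07), and 5.53% with intravenous ampicillin (log2 6.52, adjusted p = 0.000229). In the other 3, Enterobacteriaceae were not called. These were intraperitoneal vancomycin (19.0% against 0.0420% in PBS, log2 5.36, adjusted p = 0.00836), the intravenous mix (3.28% against 0.0325%, log2 3.97, adjusted p = 0.0124) and oral neomycin (2.79% against 0.0453%, log2 5.37, adjusted p = 0.0109). With oral neomycin Enterobacteriaceae were listed at 0 in every library.

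Another list held 6 families chosen by name as facultative or tolerant of oxygen. The place of Erysipelotrichaceae on it is doubtful, so a call for them is not read as a gain of such families. Whether the members of any of these families in this stool tolerate oxygen was not measured. Of the 6 families 4 could be tested in the fit, and 2 were higher with oral vancomycin, where 17.9% of all families were. These were Lactobacillaceae, lactic acid bacteria (5.63% against 0.0568% in PBS, log2 6.40, limma adjusted p = 7.67e-07), and Staphylococcaceae (0.0660% with vancomycin, listed at 0 in PBS, adjusted p = 0.0170). With intravenous ampicillin Lactobacillaceae were higher (0.886% against 0.0221%, log2 3.23, adjusted p = 0.0211), where 7.69% of all families were called higher. With the oral mix Staphylococcaceae held 11.6% and were listed at 0 in PBS (adjusted p = 2.80e-09), where 5.13% of all families were higher. With the intravenous mix, where 12.8% of all families were higher, Streptococcaceae (7.49% against 0.0238% in PBS, adjusted p = 0.0289) and Staphylococcaceae (0.0858% against 0.00140%, adjusted p = 0.0173) were called. With oral neomycin Erysipelotrichaceae were called higher (0.0191% against 0.000620%, adjusted p = 0.0438), where 7.69% of all families were. None of the 4 was called higher in the other 10 comparisons, intravenous vancomycin (5.13% of families higher) and oral ampicillin (15.4%) among them.

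Over the means of the 18 day 4 groups, the families most like Enterobacteriaceae in rank order were CAG-552 (Spearman's rho 0.516), Borkfalkiaceae (0.497), Burkholderiaceae_A_580492 (0.431), CAG-314 (0.322) and Lactobacillaceae (0.307), out of 38. The least like were Muribaculaceae (-0.725), Lachnospiraceae (-0.748) and Acutalibacteraceae (-0.766). These are descriptions over 18 means that share runs and the constraint that shares sum to 100%. Borkfalkiaceae, of the Firmicutes, averaged 29.0% with oral vancomycin and 39.8% with oral ampicillin, against 0.136% in oral PBS, and 0.382% with intravenous vancomycin, against 0.187% in intravenous PBS. At genus level the order was unclassified CAG-552 (0.516), Borkfalkia (0.497), Ligilactobacillus (0.436), Burkholderia (0.431) and CAG-314 (0.322).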

How the data were processed

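The authors deposited a composition table scaled to 100000 per library, a signal over 488 taxa named at 7 ranks, and sample sheets with antibiotic, treatment code, day and replicate for 2 sequencing runs. Amplification took 30 to 35 cycles, per the labels' protocols. The read filter and taxonomy reference were not given in the sources used here. Empty cells (11.6%) were read as 0. Reads were recovered from the smallest step of each library, within 0.02 reads. In 183 of 198 libraries the lowest value equals 2 reads. The recovered counts are the smallest that fit the values, so depth may be understated where all counts share a factor. Limits (3 reads) and intervals cover counting error only.

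Percent of reads was summed by family (109, 39 tested) and genus (326, 98 tested), and tested with limma 3.58.1 in R 4.3.3 on log2(percent + 0.01) over taxa present in at least 20% of day 4 samples. Permutation tests were computed with numpy 2.4.6, exact except for the 73 pooled samples, where 100000 resamples were drawn. Chi-square tests used scipy 1.17.1. The limma script was tested on simulated data. Averaged pairs had a chi-square p of at least 0.05. Of 90 mice with both days, 1 of the mix had unlike routes (intraperitoneal at day 0, intravenous at day 4). It was left out of tests within mice and kept as intravenous at day 4. The oral mix has 2 libraries with the same replicate number, kept as separate samples. The 4 records of the series are sequencing run files and were not compared. All rows of the family were named, with the families and genera most alike by Spearman's rho over group means. The members and lists were chosen with earlier results of these data known. Alternatives were pseudocounts, filters, scalings, depth, runs, fits and left-out samples.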

Additional observations from a re-analysis of the deposited data

Results flagged for a closer look

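In 4 of 34 groups tested for a sample far from the others, 1 mouse stood apart. Chance flags about 1 in 20 groups of continuous values, which these are not: 16 groups of day 0 and 3 of day 4 hold only zeros and cannot stand out, and 3 of the 4 groups have a single detection among zeros, which meets the criterion by construction. These were a mouse of the intraperitoneal mix group at day 0 (0.326% Enterobacteriaceae, all others of the group at 0), 1 of 6 mice with intraperitoneal metronidazole at day 4 (0.434%, all of it the unclassified row, all others at 0), 1 of 6 with intraperitoneal neomycin at day 4 (0.665%, the others at 0.00605% or less) and 1 of 6 with intravenous PBS at day 4 (0.0419%, all others at 0).

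The effect of vancomycin on Enterobacteriaceae differed between routes by the limma contrast of effects. The oral effect exceeded the intraperitoneal one by 10.38 (adjusted p = 0.00151), with vancomycin mice at 34.0% to 68.8% by mouth and 0% to 0.117% by the peritoneum. The intravenous effect exceeded the intraperitoneal one by 7.94 (adjusted p = 0.0408), with vancomycin mice at 0% to 31.0% by vein. This second difference was not called in run ok122 alone.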

How the results depend on the processing

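Oral vancomycin kept its direction and its call in every alternative run for day 4, with differences of 8.27 (pseudocount 0.1) to 12.55 (pseudocount 0.001) and 10.10 to 11.39 with a sample left out. Some alternatives could not change the oral vancomycin difference: run ok122 alone, run as a term, near-identical libraries kept separate and the change within mice. Both oral groups came from run ok122, held no averaged pair and were listed at 0 on day 0. Intravenous vancomycin (7.45 to 9.77) and intravenous ampicillin (5.15 to 8.56) kept their direction and call with any sample left out. Exact tests gave 8.07 (adjusted p = 0.114) and 6.32 (0.167), so 1 of 15 comparisons passed in place of 3. For intravenous vancomycin run ok122 alone gave 4.84 (adjusted p = 0.0842) and run SB1 alone, chosen after seeing the data, 11.30 (0.10, the smallest possible). Centred log ratios shifted the median of all families by 1.21 for oral vancomycin, 0.57 for intravenous vancomycin and 1.35 for intravenous ampicillin. With them the share of higher among called families was 40.9% (28% without) for oral vancomycin, 41.7% (20%) for intravenous ampicillin, 40% (26.1%) for oral ampicillin and 42.9% (20%) for intraperitoneal vancomycin. They also raised the comparisons with higher Enterobacteriaceae to 5, with intraperitoneal ampicillin at 5.47 (adjusted p = 0.0342) and the intravenous mix at 3.67 (0.0390). The value for the intravenous mix includes the mouse at 18.1%, whose route is uncertain. Causes were not tested.

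Among comparisons without a call, run ok122 alone gave 9.50 for intraperitoneal ampicillin (1 sample, assumed to vary like the other groups; adjusted p = 0.00386) and -0.30 for the oral mix. Leaving out a sample gave 0.27 to 9.50 for intraperitoneal ampicillin, -0.036 to 3.17 for the oral mix, -1.17 to 2.84 for the intraperitoneal mix, -0.92 to 0.55 for intraperitoneal neomycin, -0.42 to 0.63 for intraperitoneal vancomycin and -1.17 to 0.24 for intraperitoneal metronidazole. The sign turned for the oral mix within mice (-0.036), for intraperitoneal neomycin with Escherichia alone (-0.024) and for intraperitoneal metronidazole with pseudocount 0.1 (0.11) or thinning (0.25).

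Route differences in run ok122 alone were -3.58 (ampicillin, intravenous minus intraperitoneal), 4.71 (vancomycin, the same routes, adjusted p = 0.581), -3.13 (mix, oral minus intraperitoneal) and -0.14 (mix, intravenous minus intraperitoneal). The mix gave -0.040 oral minus intraperitoneal with pseudocount 0.1, and 0.79 oral minus intravenous outside Burkholderiaceae. Within mice, leaving out shallow libraries gave 9.21 for oral vancomycin (adjusted p = 0.238), -0.17 for oral ampicillin, -0.52 for intraperitoneal neomycin and -0.93 for the intraperitoneal mix, and pseudocount 0.1 gave 0.14 for intraperitoneal metronidazole. Pairs of antibiotics, tested in these ways after seeing the data, changed as follows in run ok122 alone: ampicillin minus mix by mouth 3.00, ampicillin minus metronidazole by mouth 4.39, vancomycin minus ampicillin by the peritoneum -9.36, ampicillin minus neomycin by the peritoneum 9.44, and by vein vancomycin minus ampicillin -1.08, minus mix 2.14, minus neomycin 2.64, and mix minus metronidazole 3.49. By exact tests calls were lost for ampicillin minus metronidazole by the peritoneum (5.14) and by vein (6.71), and for vancomycin by vein minus mix (4.98), neomycin (5.48) and metronidazole (8.47). A filter of 50% of samples leaves the family untested, and edgeR was not run because the table does not hold counts. Replicate number was not fitted as a block, since no source pairs mice of different groups by it. Shallow libraries limit a share of 0: 3 reads are up to 10% of a day 4 library.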
